A study of Mus musculus with 23 samples.

Results

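The genes described here build the synaptic vesicle, release it and load it with glutamate. They are 10 mouse genes: Slc17a6 and Slc17a7, Snap25, Stx1a and Vamp2, Syt1 and Syt4, Syn1 and Syn2, and Sv2b. They were chosen by gene symbol. Every probe set of the expression array annotated with 1 of these symbols and no other was taken, which gave 24 probe sets of 45101 and all 10 genes of 18193 with a single-symbol probe set. A probe set is a group of short probes read as 1 value, and a value is a linear signal that the authors scaled to the same mean on every array.

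The arrays measured medulloblastoma, a cerebellar tumour, grown from dissociated Ptch+/-HIC+/- mouse tumour cells under the skin of nude mice, so all groups share that genotype and that host. Resistant tumours had NVP-LDE225, which blocks Smoothened, the protein that passes on the Hedgehog signal, at 160 mg/kg (3 arrays) or at 40 mg/kg (3 arrays), with no time given. Sensitive tumours had 40 mg/kg of it for 4, 8, 24 or 48 h (3 arrays each). The controls were 2 vehicle arrays at 4 h and 3 vehicle arrays with no time given. Nude mice lack mature T cells but keep the other cells of a host, whose mouse RNA the same probes read. No label names separate animals for replicates or gives the animals' age, so each p-value covers only how far these arrays differ, which may be technical, and their number limits the precision.

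A synaptic vesicle is filled by a transporter that uses the proton gradient of the vesicular proton pump, and the transporter it carries decides which transmitter it holds. Synapsins tie vesicles into a reserve pool. Vesicles dock and fuse through the SNARE proteins SNAP-25, syntaxin-1 and VAMP2, and fuse on calcium entry through synaptotagmin-1. Cerebellar granule neurons, whose progenitors are the cells of origin of Hedgehog medulloblastoma, release glutamate. In rodents, young granule neurons use the glutamate transporter VGLUT2, the product of Slc17a6, and mature ones mainly VGLUT1, the product of Slc17a7.

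Promoters of 7 of the 10 genes were searched, 13 in all, called member promoters here. No promoter of Snap25, Syt4 or Vamp2 was among them, so the counts do not cover these genes. Shares of all promoters refer to the 32851 of the RefSeq table used (mouse build GRCm38.p6). The 250 bases before the first of 2 starts of Slc17a6 and before the start of Slc17a7 are shown because these genes set the transmitter and stood far apart at 48 h, and those of Syn1 because that window was the only member promoter with the letters TCAGCACC. All are 5′ to 3′ on the gene's strand, and capitals mark matches to CANNTG (the E-box) and to TCAGCACC (the left part of the RE1 element).
Slc17a6, chr7:51621580-51621829, plus strand: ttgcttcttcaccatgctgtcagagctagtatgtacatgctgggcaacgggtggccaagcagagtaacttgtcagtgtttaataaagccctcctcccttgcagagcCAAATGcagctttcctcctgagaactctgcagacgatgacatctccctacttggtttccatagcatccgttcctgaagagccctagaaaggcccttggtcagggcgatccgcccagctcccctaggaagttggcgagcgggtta
Slc17a7, chr7:45163671-45163920, plus strand: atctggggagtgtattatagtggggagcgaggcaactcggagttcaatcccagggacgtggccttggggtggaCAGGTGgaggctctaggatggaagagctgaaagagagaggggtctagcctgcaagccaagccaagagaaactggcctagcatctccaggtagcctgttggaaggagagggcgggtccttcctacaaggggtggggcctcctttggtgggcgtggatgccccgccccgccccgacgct
Syn1, chrX:20920919-20921168, minus strand: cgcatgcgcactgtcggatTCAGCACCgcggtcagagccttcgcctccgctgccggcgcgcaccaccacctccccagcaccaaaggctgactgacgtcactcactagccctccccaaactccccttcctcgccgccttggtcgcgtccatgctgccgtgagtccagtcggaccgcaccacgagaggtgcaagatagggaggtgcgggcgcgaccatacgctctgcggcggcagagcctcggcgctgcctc

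Searched on both strands, CANNTG was found in 11 of the 13 member promoters, against 66.2% of all promoters of that length. Several of the 13 are alternative starts of the same gene, mostly of Sv2b, so they are not separate genes. The narrower forms CAGATG and CAGCTG were each in 2 of the 13, near the 14.4% and 13.0% of all promoters. In the windows shown, it began 144 bases before the first start of Slc17a6 and 177 bases before that of Slc17a7. TCAGCACC began 231 bases before the start of Syn1, and 1.32% of all promoters held it. The right part of the RE1 element, GGACAG, was not found in the Syn1 window. It was in 3 of the 13, against 18.7% of all promoters. The window of the second Slc17a6 start, not shown, held 2 matches to CANNTG. The GLI site core GACCACCCA, which 0.225% of all promoters held, was in 0 of the 13. A match is only a match of letters in this window.

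The signal of Zic1, a transcription factor of the cerebellar granule lineage, lay between 3796 and 9201 on all 23 arrays, and that of Rbfox3, the neuronal nuclear antigen NeuN, between 1369 and 2129. Within that range Zic1 averaged 8155 ± 998 at 24 h and 7829 ± 823 at 48 h of drug, against 4389 ± 282 in vehicle (SD, n = 3 each). Gli1, a standard readout of Hedgehog signalling, averaged 20.4 ± 24.1 at 24 h and 12.3 ± 7.37 at 48 h of drug, 1165 ± 172 in resistant 40 mg/kg tumours and 633 ± 60.9 in resistant 160 mg/kg tumours, against 679 ± 42.2 in vehicle (SD, n = 3 each). For 6 of 12 short-term drug arrays, a second label calls the tumour resistant. The description label, which gives dose and time, was followed. Signals under the 40th percentile of an array, which was 18.7 to 28.6, are treated here as near background.

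After 24 h and 48 h of the antagonist, 8 of the 10 genes were higher than in vehicle tumours. They were Slc17a6, Slc17a7, Snap25, Stx1a, Vamp2, Syt1, Syn1 and Syn2, with 1 probe set a gene, that of the highest mean, speaking for it. Syt4 and Sv2b did not pass the test at either time. In resistant tumours, with the drug at either dose, none of the 10 genes passed the test against vehicle, and the same 8 genes were lower in resistant 40 mg/kg tumours than in 48 h tumours.

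Counted by probe set, 22 of the 24 passed the filter on low signal and were tested with limma, at an adjusted p under 0.05 over all 35069 tested probe sets. The 2 others, 1 of Syt4 and 1 of Syn2, were near background on all arrays except 1 resistant 40 mg/kg array for Syt4. Both probe sets of Slc17a6 and that of Slc17a7 were near background on all 3 vehicle arrays and above the 40th percentile on all 3 arrays of 24 h and of 48 h. At 24 h, 17 of the 22 rose relative to vehicle and 0 fell, while over all tested probe sets 16.6% rose and 12.5% fell. At 48 h, 16 rose and 0 fell, against 20.6% higher and 17.7% lower among all. The median log2 difference of the 22 was 1.14 at 24 h and 1.11 at 48 h, and over all tested probe sets it was 0.10 and 0.04. Against the 24 h arrays, the 48 h arrays were higher for 2 member probe sets, both of Slc17a6, and lower for 0, against 9.73% higher and 10.8% lower among all. The sample titles carry identifier numbers in separate runs, called title runs here. Within the 1 title run that holds 2 of the 3 arrays of 24 h and all vehicle arrays of no stated time, 14 member probe sets rose at 24 h. The 16.6% and 12.5% above belong to the fit of all arrays, and no share over all probe sets is given for this run.

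**Figure D1:**
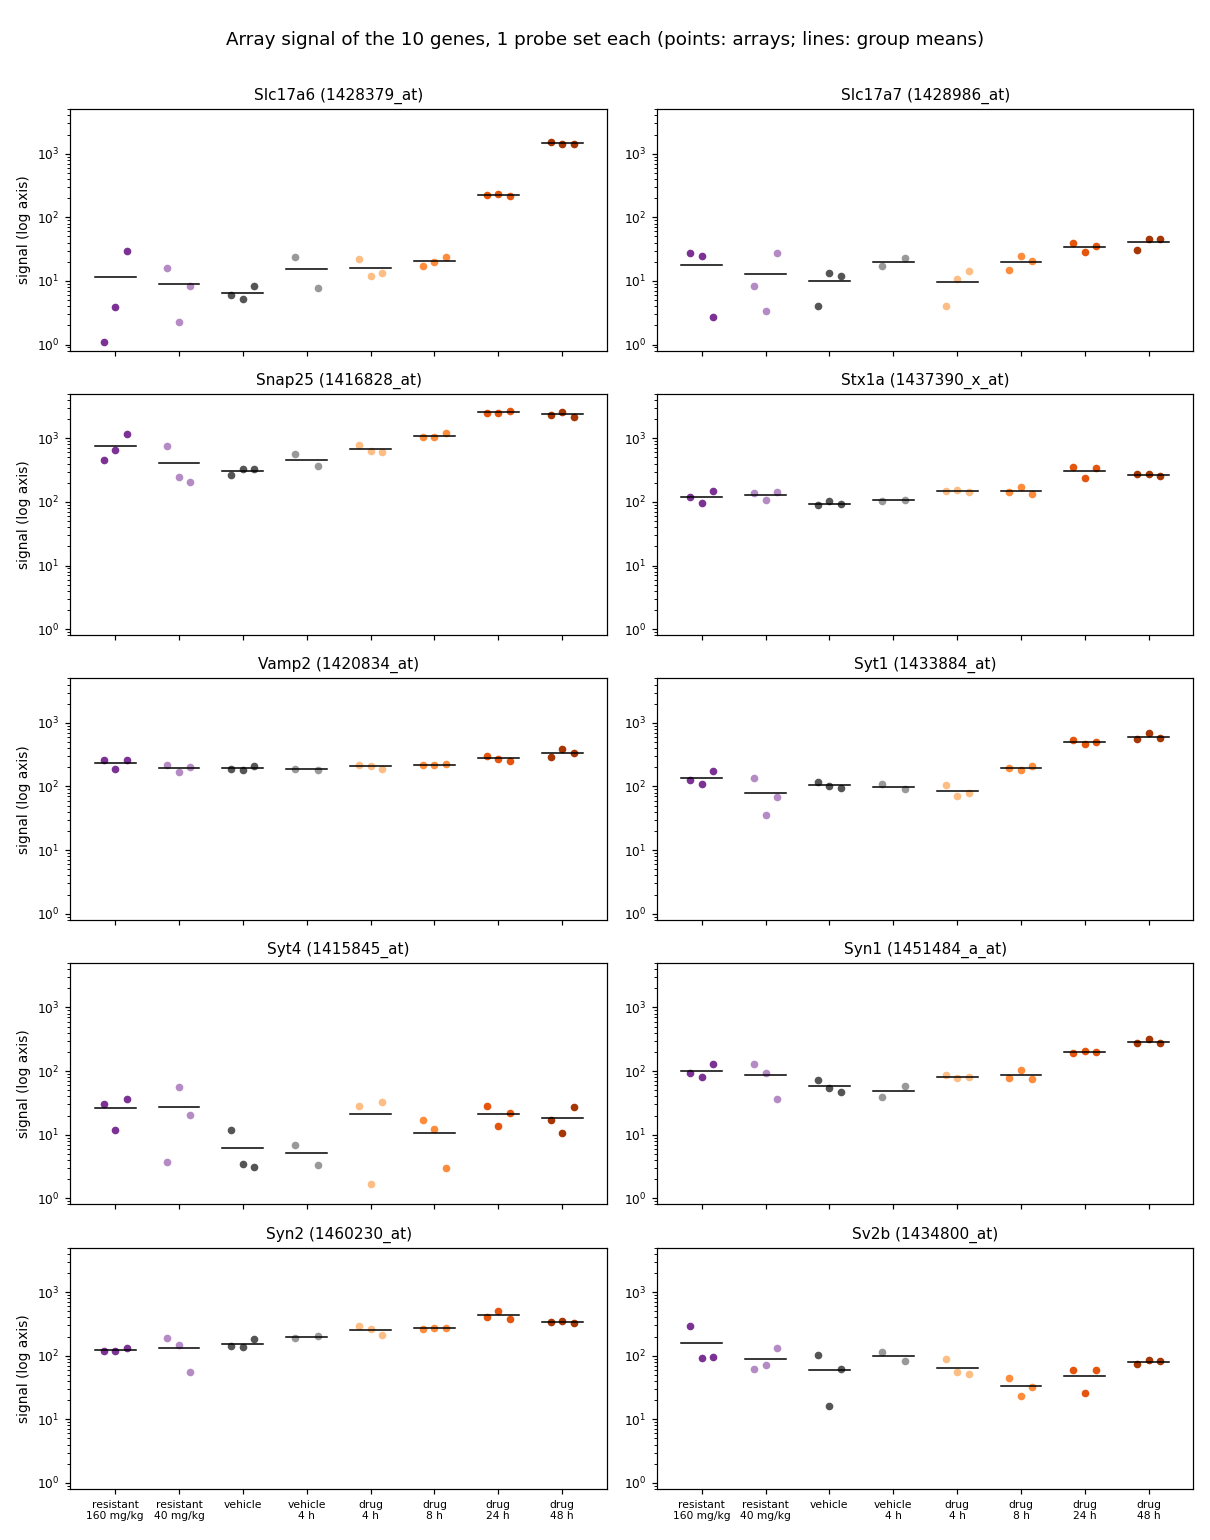
Signal of the probe set with the highest mean for each of the 10 genes on all 23 arrays (log axis), with groups from left to right: resistant at 160 and 40 mg/kg, vehicle, vehicle 4 h, and drug at 4, 8, 24 and 48 h. Points are arrays and lines are group means. Slc17a6 stands at 1416.3 to 1549.3 at 48 h and at 8.2 or less in vehicle, while Sv2b shows no such step.

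Markers of other cell types moved on the same arrays. Of 8 postmitotic neuron markers, 7 were higher and 0 lower at 24 h and at 48 h, and their summed signal was 6897 to 7629 at 24 h and 10009 to 11034 at 48 h, against 2818 to 2880 in vehicle. All 6 macrophage markers were higher at 48 h, with a sum of 16466 to 23311, against 999.9 to 1722 in vehicle, and 3 of them at 24 h. All 6 fibroblast markers were higher at both times, with sums of 14374 to 19025 at 24 h and 25175 to 35904 at 48 h, against 2415 to 6116 in vehicle. Of 5 endothelial markers, 2 were higher at 24 h and 5 at 48 h, where the sum was 758 to 1291, against 215 to 346 in vehicle. Skeletal muscle markers were higher for 8 of 10 at 24 h, with sums of 7388 to 10751, against 143.8 to 8653 in vehicle. Of 6 astrocyte markers, 3 were higher at 24 h, with sums of 1938 to 2221 against 612 to 866 in vehicle. They were Gfap (log2 difference 3.11), Slc1a2 (1.58) and Slc1a3 (0.77), while Aqp4 stayed at or under 30.5 on every array. Inhibitory neuron markers had 1 of 3 higher, Lhx1, while Gad2, a GABA-synthesising enzyme, stayed at or under 28.7 and Slc32a1, the GABA vesicle transporter, at or under 27.9 in its probe set of highest mean. Granule neuron markers had 2 of 6 higher at 48 h, Neurod1 (log2 difference 4.33) and Zic1 (0.83), and 2 lower, Grin2c (-2.59) and Pax6 (-0.85). Their sums were 14432 to 16535, against 6431 to 7007 in vehicle. Oligodendrocyte and Schwann cell markers had 2 of 4 higher at 48 h, Pmp22 (2.15) and Mbp (0.47), while Mog stayed at or under 26.5. Their sums were 866 to 1099, against 338 to 384 in vehicle. Of 6 cholinergic or monoaminergic markers, 1 was lower and 0 higher. For actin, the 3′ over 5′ signal on the log2 scale, a sign of RNA quality, averaged 1.65 ± 0.22 at 24 h, 0.92 ± 0.07 at 48 h and 1.04 ± 0.04 in vehicle tumours (SD, n = 3 each). The part of other cells and of RNA quality in the members' differences was not tested, and in whole tumours a change in the number of cells of a type cannot be told apart from a change in RNA per cell.

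Slc17a6 encodes VGLUT2, which pumps glutamate into vesicles, and had the largest difference among the members. In the time series its signal was 6.0, 5.2 and 8.2 in vehicle, 23.4 and 7.8 in 4 h vehicle, 22.2, 12 and 13.3 at 4 h, 17.4, 20.1 and 23.9 at 8 h, 228.5, 236.8 and 215.1 at 24 h, and 1549.3, 1416.3 and 1434.3 at 48 h. In resistant tumours it was 1.1, 3.9 and 29.3 at 160 mg/kg and 15.7, 2.3 and 8.4 at 40 mg/kg. The 24 h and 48 h arrays lay above every array of the other groups and did not overlap each other, while the rest were near background but for single arrays. The log2 difference of signal plus 16, a scale that understates changes of low signals, was 3.44 (SE 0.28, adjusted p = 1.6e-09) at 24 h and 6.05 (SE 0.28, adjusted p = 7.4e-14) at 48 h against vehicle. Between 48 h and 24 h it was 2.61 (adjusted p = 6.8e-07).

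A second Slc17a6 probe set, which targets the same transcript symbol with other probes, moved the same way. It read 65.8, 72.9 and 83.5 at 24 h and 538.5, 444.9 and 447.7 at 48 h. In vehicle it read 1.4, 1.8 and 1.5, the lowest of all groups, in 4 h vehicle 8.6 and 27.8, and at 4 h of drug up to 32.3. Its log2 difference from vehicle was 2.35 at 24 h (adjusted p = 1.4e-06) and 4.81 at 48 h (adjusted p = 9.3e-12).

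Slc17a7 encodes VGLUT1, the other main glutamate transporter of vesicles, and stayed low. In the time series its single probe set read 4.0, 13.5 and 12 in vehicle, 16.9 and 22.9 in 4 h vehicle, 4.1, 10.6 and 14.3 at 4 h, 14.9, 24.3 and 20.3 at 8 h, 39.4, 28.3 and 35.6 at 24 h, and 31.0, 45.1 and 46.4 at 48 h. Its resistant arrays read 27.1, 24.5 and 2.7 at 160 mg/kg and 8.2, 3.4 and 27.1 at 40 mg/kg. The 24 h and 48 h arrays lay above all others, but by little over the arrays' 40th percentile. The log2 difference from vehicle was 0.98 (SE 0.32, adjusted p = 0.023) at 24 h and 1.15 (SE 0.32, adjusted p = 0.0057) at 48 h. Set against the 4 h vehicle arrays, it was 0.49 (adjusted p = 0.37) and 0.66 (adjusted p = 0.17). The 24 h call was also lost without 24 h replicate 1 (adjusted p = 0.073), without 24 h replicate 3 (0.058) and without vehicle replicate 1 (0.10), with the title run as a block (0.080) and with an offset of 1 (0.059).

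The SNARE proteins form the bundle that pulls the vesicle onto the plasma membrane. Snap25, a SNARE of the plasma membrane, read 264.6, 325.7 and 330.6 in vehicle, 557.5 and 367.9 in 4 h vehicle, 770.9, 621.1 and 608.9 at 4 h, 1045.4, 1067.4 and 1204.0 at 8 h, 2472.2, 2502.9 and 2707.0 at 24 h, and 2308.2, 2625.3 and 2169.9 at 48 h. The groups of 4 h, 8 h, 24 h and 48 h of drug each lay above both vehicle groups, and those of 24 h and 48 h overlapped. The 4 h difference from 4 h vehicle, 0.53, did not pass the limma test (SE 0.34, adjusted p = 0.87). The log2 difference from vehicle was 3.00 (SE 0.30, adjusted p = 5.2e-08) at 24 h and 2.89 (SE 0.30, adjusted p = 4.7e-08) at 48 h. Averaged with a second, dimmer probe set, it was 1.99 at 24 h and 1.79 at 48 h. The dimmer probe set alone gave 0.99 at 24 h (adjusted p = 0.015) and 0.68 at 48 h (adjusted p = 0.077).

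Stx1a, the syntaxin of the plasma membrane, read 352.6, 240.2 and 341.2 at 24 h and 272.3, 278.4 and 252.5 at 48 h, against 88.6, 102.8 and 91.2 in vehicle. Both drug groups lay above vehicle with a wide gap. The log2 difference was 1.55 (adjusted p = 5.7e-08) at 24 h and 1.37 (adjusted p = 2.0e-07) at 48 h. This probe set is of a kind that can share probes with other transcripts. A second, free of that mark, gave 1.14 (adjusted p = 0.0021) and 1.05 (adjusted p = 0.0028).

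Vamp2, the SNARE of the vesicle itself, had the smallest difference of the 8 genes. It read 307.0, 273.7 and 254.7 at 24 h and 288.3, 395.0 and 331.3 at 48 h, against 185.9, 184.8 and 213.2 in vehicle. The log2 difference was 0.48 (SE 0.14, adjusted p = 0.011) at 24 h and 0.74 (SE 0.14, adjusted p = 0.00014) at 48 h. The 24 h call was lost without 24 h replicate 1 (adjusted p = 0.059) and with the title run as a block (0.066). Its second probe set did not pass, at 0.31 (adjusted p = 0.32) and 0.41 (adjusted p = 0.16).

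Syt1, the calcium sensor of fast release, rose at both times. It read 538.0, 474.0 and 500.2 at 24 h and 549.8, 685.3 and 575.8 at 48 h, against 116.3, 102.2 and 96.1 in vehicle. The log2 difference was 2.11 (SE 0.24, adjusted p = 3.1e-07) at 24 h and 2.36 (SE 0.24, adjusted p = 2.7e-08) at 48 h. Of its 4 probe sets, 3 passed at 24 h and 4 at 48 h, with differences between 0.87 and 2.18 at 24 h and between 1.48 and 2.36 at 48 h.

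Syt4, a synaptotagmin found largely on vesicles other than synaptic ones, was low. Its brighter probe set was near background on 18 of 23 arrays, among them all vehicle, 8 h, 24 h and 48 h arrays. It read 28.2, 13.5 and 22.2 at 24 h and 16.8, 10.6 and 27.3 at 48 h, against 11.8, 3.5 and 3.1 in vehicle. The highest array of all, at 56.8, was resistant 40 mg/kg replicate 2. The log2 difference from vehicle was 0.76 (SE 0.41, adjusted p = 0.18) at 24 h and 0.62 (SE 0.41, adjusted p = 0.26) at 48 h, which is too imprecise to tell a rise from none at this signal.

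The synapsins Syn1 and Syn2 tie vesicles into a reserve pool. Syn1 read 190.1, 208.6 and 196.4 at 24 h and 277.3, 314.7 and 277.2 at 48 h, against 71.5, 55.0 and 46.3 in vehicle. Its log2 difference was 1.56 (SE 0.25, adjusted p = 4.0e-05) at 24 h and 2.07 (SE 0.25, adjusted p = 3.9e-07) at 48 h. The 48 h arrays all lay above the 24 h arrays, but the step between these times, 0.51, did not pass (SE 0.25, adjusted p = 0.16), except with only these 2 groups in the fit (adjusted p = 0.0072).

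Syn2 read 401.4, 509.1 and 382.5 at 24 h and 338.0, 347.3 and 325.2 at 48 h, against 142.1, 135.5 and 181.8 in vehicle. Its log2 difference was 1.40 (SE 0.23, adjusted p = 5.3e-05) at 24 h and 1.07 (SE 0.23, adjusted p = 0.00061) at 48 h. All 5 tested Syn2 probe sets passed at 24 h, between 0.87 and 1.51, and 4 passed at 48 h. The difference between 48 h and 24 h in the brightest, -0.33, did not pass (adjusted p = 0.35).

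Sv2b, a glycoprotein of the vesicle membrane, did not follow the other genes. It read 59.8, 26.0 and 58.9 at 24 h and 74.0, 84.7 and 82.4 at 48 h, against 102.1, 15.9 and 61.6 in vehicle. The vehicle arrays spanned the drug arrays. The log2 difference was -0.10 (SE 0.40, adjusted p = 0.89) at 24 h and 0.54 (SE 0.40, adjusted p = 0.32) at 48 h.

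**Figure D2:**
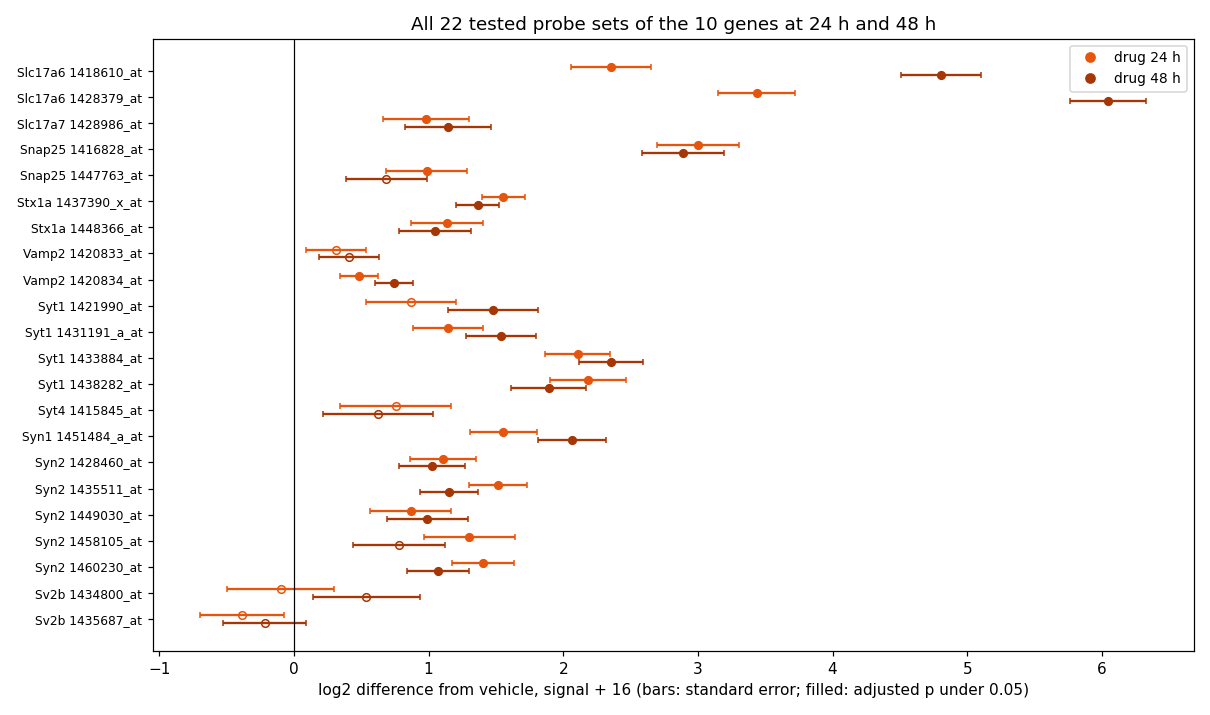
Log2 difference of signal plus 16 from vehicle for each of the 22 tested member probe sets, at 24 h and 48 h of drug; points are estimates, bars standard errors, and filled points passed an adjusted p under 0.05. Both Slc17a6 probe sets lie to the right of all others at 48 h, at 4.81 and 6.05, and neither Sv2b probe set passed, at 0.54 and -0.22 there.

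The first hours asked when these genes begin to differ. At 4 h, 0 of the 22 member probe sets passed the limma test against 4 h vehicle, where 0.285% of all tested probe sets did. At an unadjusted p under 0.05 there were 3 of the 22, and 6.6% of all. At 8 h, 2 were higher and 0 lower, where 1.45% of all were higher and 1.80% lower. At an unadjusted p under 0.05 there were 9 of the 22, and 13.8% of all. The 2 were Snap25, at 1.25 (SE 0.34, adjusted p = 0.041), and a probe set of Syt1 that read 89.0, 107.2 and 115.5 at 8 h, against 48.0 and 24.1 in 4 h vehicle (1.24, SE 0.31, adjusted p = 0.027). The brighter Syt1 probe set read 197.2, 182.1 and 209.0 at 8 h, against 109.0 and 89.8 in 4 h vehicle, and missed the threshold (0.88, adjusted p = 0.078).

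The 8 h calls rest on few arrays. Between 0 and 1 of the 22 passed when any 1 array of either group was left out, and 1 passed without 4 h vehicle replicate 1, which leaves arrays of 1 title run. For Snap25, leaving out an 8 h array gave an adjusted p of 0.090 (replicate 1), 0.097 (replicate 2) or 0.13 (replicate 3), and leaving out a 4 h vehicle array gave 0.074 (replicate 1) or 0.40 (replicate 2). Between the 4 h vehicle and the vehicle arrays of no stated time, 0 of the 22 passed, where 0.123% of all tested probe sets did. At an unadjusted p under 0.05 it was 1 of the 22, and 7.92% of all. These groups lie in different title runs, so run and group cannot be told apart there.

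Resistant tumours of both doses were compared with vehicle and with each other, and those at 40 mg/kg also with 48 h drug at the same dose. In resistant 40 mg/kg tumours, 0 of the 22 member probe sets passed against vehicle, where 7.11% of all tested probe sets did. At an unadjusted p under 0.05 there were 4 of the 22, near the 19.5% of all. In resistant 160 mg/kg tumours 0 passed, where 1.01% of all did, and 5 of the 22 had an unadjusted p under 0.05, where 13.6% of all did. The members' median log2 difference from vehicle was 0.28 at 160 mg/kg and 0.05 at 40 mg/kg. Cell markers differed between resistant 40 mg/kg tumours and vehicle. Of 6 macrophage markers 5 were higher and 0 lower, with sums of 5508 to 7115 against 999.9 to 1722. Of 6 fibroblast markers 3 were higher and 0 lower, of 8 postmitotic neuron markers 1 and 0, and of 6 astrocyte markers 0 and 1. Their part in the members' values was not tested. Against 48 h drug, 17 of the 22 were lower in resistant 40 mg/kg tumours and 0 higher, with a median of -1.35, where 15.4% of all were lower, 14.6% higher and the median was -0.02.

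Slc17a6 showed the widest gap between resistant 40 mg/kg and 48 h tumours, at -5.94 (SE 0.28, adjusted p = 1.6e-13). The gap was -2.82 for Syt1 (adjusted p = 3.8e-09), -2.74 for Snap25 (adjusted p = 2.3e-07), -1.71 for Syn1 (adjusted p = 1.1e-05), -1.40 for Syn2 (adjusted p = 4.8e-05), -0.98 for Stx1a (adjusted p = 4.0e-05) and -0.74 for Vamp2 (adjusted p = 0.00023). For Slc17a7 it was -1.05 (adjusted p = 0.014), which did not pass without resistant 40 mg/kg replicate 2 (adjusted p = 0.090) or without 48 h replicate 4 (0.053). Syt4, at 0.16 (adjusted p = 0.83), and Sv2b, at 0.05 (adjusted p = 0.95), did not pass. The dimmer probe set of Snap25 (-0.49, adjusted p = 0.24) and the second of Stx1a (-0.59, adjusted p = 0.10) did not pass either. The latter is the Stx1a probe set free of the shared-probe mark. For the other genes that were lower, every tested probe set passed. In the same comparison all 6 macrophage, all 6 fibroblast and 7 of 8 postmitotic neuron markers were lower too. The neuron sum was 2709 to 3968 in resistant 40 mg/kg tumours, against 10009 to 11034 at 48 h, and the macrophage sum 5508 to 7115, against 16466 to 23311. Their part in the members' gap was not tested.

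**Figure D3:**
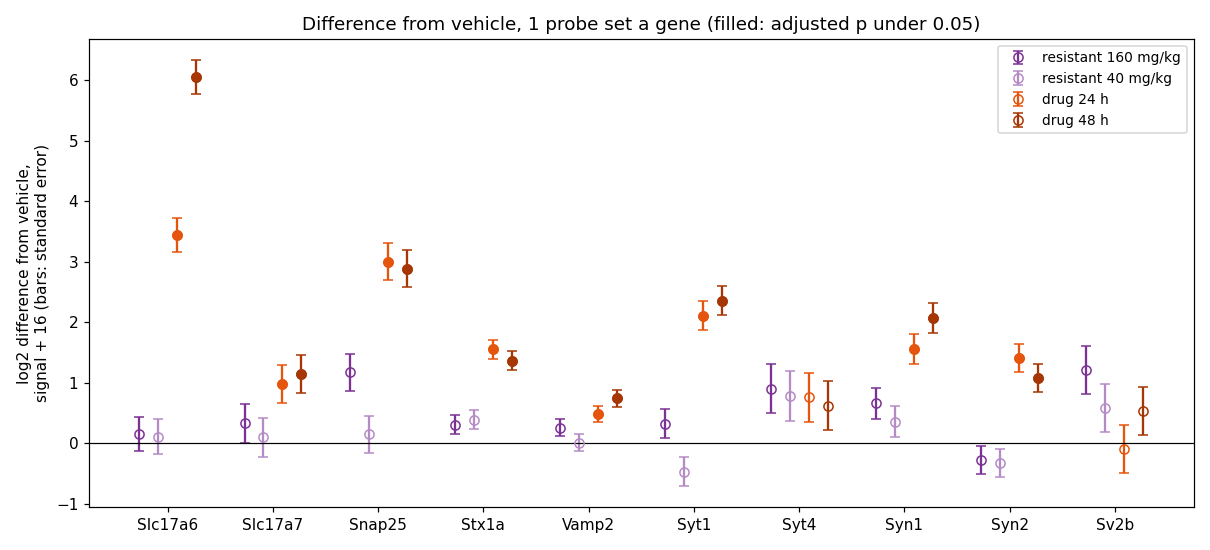
Log2 difference of signal plus 16 from vehicle for 1 probe set of each gene, in resistant tumours at 160 and 40 mg/kg and after 24 h and 48 h of drug; bars are standard errors, and filled points passed an adjusted p under 0.05. Filled points appear for 8 genes at 24 h and 48 h, and no resistant point is filled.

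Resistant tumours varied among themselves. Snap25 read 463.3, 662.9 and 1153.3 at 160 mg/kg and 753.5, 245.8 and 207.1 at 40 mg/kg, against 264.6, 325.7 and 330.6 in vehicle. The 160 mg/kg arrays all lay above vehicle, while the 40 mg/kg arrays lay on both sides of it. The log2 difference from vehicle was 1.17 at 160 mg/kg (SE 0.30, adjusted p = 0.063), and 1.47 without replicate 1 (adjusted p = 0.0092). Between the doses, 160 over 40 mg/kg, it was 1.03 (adjusted p = 0.09). It passed without 40 mg/kg replicate 1 (1.58, adjusted p = 0.00012) and without 160 mg/kg replicate 1 (1.33, adjusted p = 0.023). The dimmer Snap25 probe set gave 0.50 (adjusted p = 0.49) for 160 mg/kg against vehicle and 0.31 (adjusted p = 0.77) between the doses. Syt1 read 124.9, 109.8 and 178.0 at 160 mg/kg and 133.6, 36.0 and 69.0 at 40 mg/kg. The difference was 0.79 (adjusted p = 0.099), and it passed without 40 mg/kg replicate 1 (1.18, adjusted p = 8e-04). The other Syt1 probe sets gave 0.31 (adjusted p = 0.80), -0.03 (adjusted p = 0.98) and 0.32 (adjusted p = 0.74) between the doses. The 40 mg/kg replicate 1 array was the highest of its group for both genes. Cell markers moved in these comparisons too. Against vehicle, 160 mg/kg tumours were higher for 2 of 8 postmitotic neuron markers, Elavl3 (0.88) and Tubb3 (1.28), for 1 of 6 granule neuron markers, Neurod1 (1.5), and for 3 of 6 macrophage markers, with neuron sums of 3510 to 4469 against 2818 to 2880 in vehicle. Between the doses, 160 mg/kg tumours were higher for 1 of 8 postmitotic neuron markers, Elavl4 (1.53), and 2 of 6 astrocyte markers, Slc1a2 (1.62) and Slc1a3 (1.44), with astrocyte sums of 847 to 1301 against 310 to 530 at 40 mg/kg. Also higher were the granule neuron marker Grin2c (0.57), the inhibitory neuron marker Lhx1 (1.22) and Mbp (0.93), an oligodendrocyte and Schwann cell marker. Their part in the Snap25 and Syt1 differences was not tested.

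Between the doses 0 of the 22 passed, where 2.13% of all tested probe sets did. At an unadjusted p under 0.05 there were 3 of the 22, near the 12.1% of all. Left-out arrays gave up to 2 calls between the doses, up to 3 for 40 mg/kg against vehicle (without 40 mg/kg replicate 2, and 1 each without replicates 1 and 3) and 1 for 160 mg/kg against vehicle (without replicate 1). Without 40 mg/kg replicate 1, Syt1 was lower than vehicle (-0.86, adjusted p = 0.011), and without replicate 3, which read 35.8 against 128.0 and 92.8 in replicates 1 and 2, Syn1 was higher (0.78, adjusted p = 0.018). Sv2b read 292.0, 91.0 and 95.1 at 160 mg/kg and 61.2, 71.5 and 130.8 at 40 mg/kg, and its high value on 160 mg/kg replicate 1 was shared by its second probe set, at 159.2 against 43.7 and 65.5 in replicates 2 and 3.

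Vesicles of other transmitters carry other transporters, and those were set beside the glutamate pair. Slc18a2, the vesicular monoamine transporter VMAT2, fell. Its signal was 413.8, 402.8 and 394.0 in vehicle, 294.8 and 208.6 in 4 h vehicle, 93.3, 92.2 and 111.5 at 4 h, 29.3, 30.1 and 25.8 at 8 h, 6.2, 1.1 and 13.4 at 24 h, and 12.2, 12.7 and 18.7 at 48 h. In resistant tumours it was 532.3, 178.9 and 110.8 at 160 mg/kg and 554.9, 128.0 and 575.8 at 40 mg/kg. The drug groups lay below both vehicle groups at every time, and the resistant arrays lay on both sides of vehicle.

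The 4 h difference of Slc18a2 did not pass the test (-1.20, SE 0.47, adjusted p = 0.59). At 8 h it was -2.57 (SE 0.47, adjusted p = 0.0016, and 0.061 with the title run as a block), at 24 h -4.23 (SE 0.42, adjusted p = 3.3e-08) and at 48 h -3.79 (SE 0.42, adjusted p = 9.1e-08). Resistant 40 mg/kg tumours were 3.59 higher than 48 h tumours (adjusted p = 4.5e-07). Slc18a1, the other monoamine transporter, stayed at or under 33.9 on every array over its 3 probe sets, Slc18a3, the acetylcholine transporter, at or under 29.1, and Slc32a1 at or under 40.5 over its 4 probe sets. Th and Dbh, enzymes of catecholamine synthesis, stayed at or under 37.0 and 38.8.

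**Figure D4:**
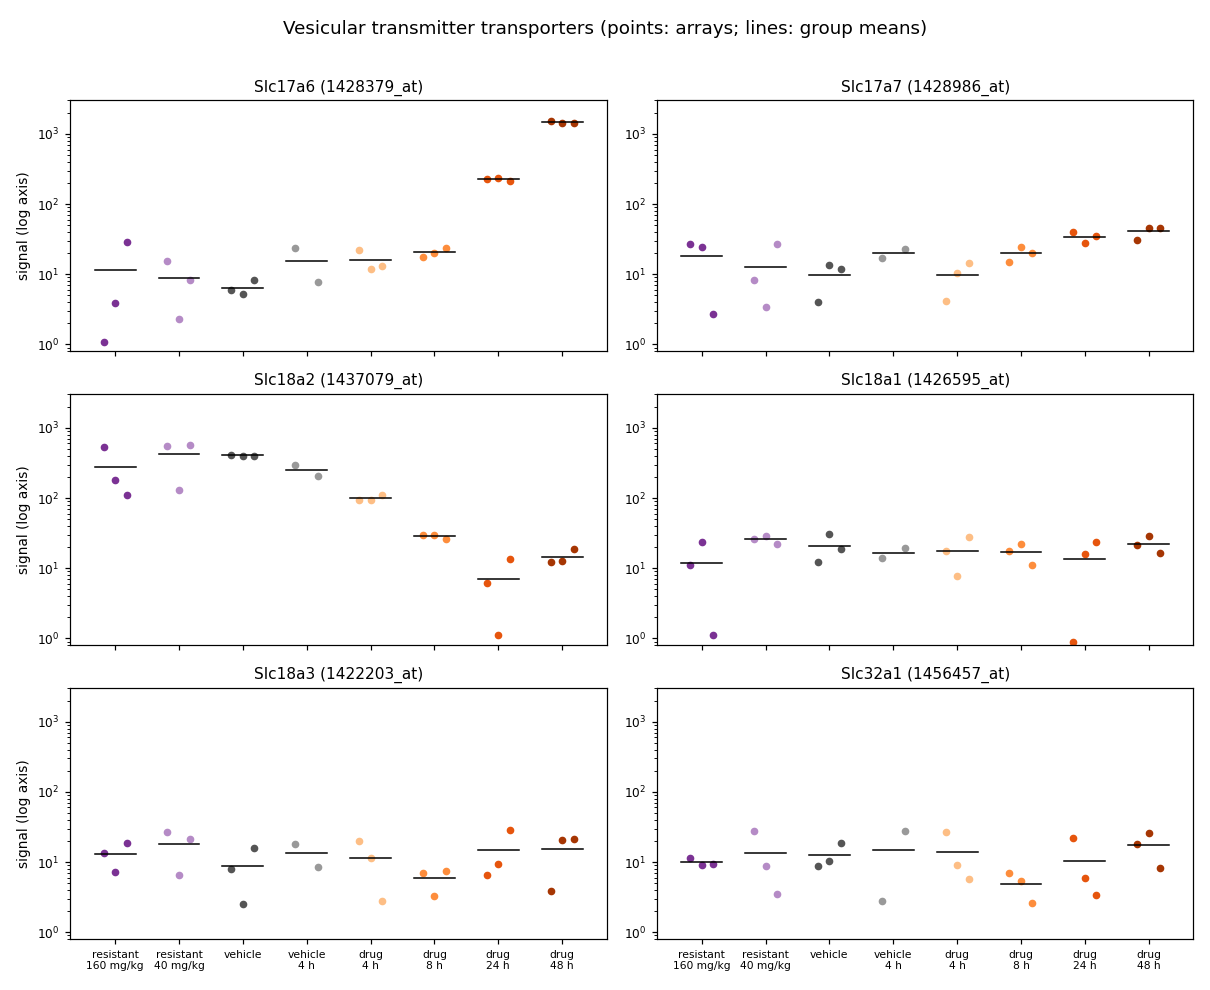
Signal of vesicular transporters of glutamate (Slc17a6, Slc17a7), monoamines (Slc18a2, Slc18a1), acetylcholine (Slc18a3) and GABA (Slc32a1) on all 23 arrays (log axis), in the same group order as the plot of the 10 genes; points are arrays and lines group means. Slc17a6 is high at 24 h and 48 h, where Slc18a2 is at 18.7 or less.

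The wider release machinery was counted from lists of genes that exclude the 10. Of 23 tested vesicle membrane proteins, 16 were higher and 0 lower at 48 h than in vehicle, with a median of 0.80. Atp6v0d1, a subunit of the proton pump that powers loading, was 1871 ± 127 against 849 ± 41.6 (1.12, adjusted p = 6.7e-10), its partner subunit Atp6v1b2 rose by 1.45 (adjusted p = 1.1e-08), its accessory protein Atp6ap1 by 1.11 (adjusted p = 3.2e-09), and Scamp1, a carrier membrane protein, by 1.13 (adjusted p = 5.5e-08). The proton pump also acidifies lysosomes in other cells, macrophages included, and all 6 macrophage markers were higher on the same arrays. The part of macrophages or other cells in these differences was not tested. In resistant 40 mg/kg tumours 0 of these 23 were higher and 15 lower than at 48 h, where 14.6% of all tested probe sets were higher and 15.4% lower.

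Of 31 other SNARE and fusion regulators, 15 were higher and 2 lower at 48 h, with a median of 0.51. Cplx1, a complexin that binds the SNARE bundle, was 740 ± 75.3 against 79.2 ± 36.5 (3.05, adjusted p = 1.3e-06). The 2 that fell were Doc2b, a calcium sensor of slower release, at 57.1 ± 7.66 against 1007 ± 104 (-3.81, adjusted p = 3.5e-13), and Stxbp6, a syntaxin-binding protein, at 134 ± 20.4 against 691 ± 116 (-2.23, adjusted p = 8.2e-10). Rabac1, a Rab-binding membrane protein, rose by 0.91 (adjusted p = 1.3e-06). Doc2b was 1373 ± 98.1 in resistant 40 mg/kg tumours, 4.25 above 48 h (adjusted p = 6.6e-14).

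Of 11 other synaptotagmins, 2 were higher and 2 lower at 48 h, which is near the 20.6% and 17.7% of all tested probe sets, with a median of 0.26. Syt11 rose by 2.05 (adjusted p = 4.8e-07, and 1.27 against 4 h vehicle) and Syt9 by 1.19 (adjusted p = 0.0029, lost against 4 h vehicle at 0.38 and adjusted p = 0.44). Syt13 was 14.3 ± 10.6 against 389 ± 25.5 (-3.79, adjusted p = 1.8e-09) and Syt12 10.8 ± 10.3 against 139 ± 51.5 (-2.54, adjusted p = 1.1e-06). In resistant 40 mg/kg tumours 2 were higher and 2 lower than at 48 h, near the 14.6% and 15.4% of all tested probe sets.

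At the active zone, the membrane patch where vesicles fuse, 8 of 20 genes were higher and 3 lower at 48 h, with a median of 0.54. Ppfia2, the scaffold liprin-alpha-2, was 195 ± 17.5 against 4.07 ± 2.16 (3.40, adjusted p = 1.7e-09), and the large scaffolds Pclo and Bsn rose by 1.56 (adjusted p = 3.1e-08) and 1.74 (adjusted p = 1.4e-06). Rimbp2, which links calcium channels to release sites, was 35.9 ± 15.6 against 207 ± 23.6 (-2.14, adjusted p = 1.2e-08). Of 26 genes of vesicle endocytosis, 14 were higher and 2 lower, with a median of 0.40. Synj1, the phosphatase synaptojanin that helps uncoat vesicles, rose by 1.48 (adjusted p = 8.3e-10) and Sh3gl2, endophilin A1, by 1.70 (adjusted p = 8.1e-07). Bin1, amphiphysin 2, rose by 1.33 (adjusted p = 1.5e-06), while Cltb, clathrin light chain B, was 184 ± 32.5 against 1077 ± 151 (-2.45, adjusted p = 5.1e-07).

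Glutamate supply and uptake had 3 of 13 genes higher and 2 lower at 48 h, with a median of -0.03. Glul, glutamine synthetase, was 3347 ± 243 against 1078 ± 111 (1.62, adjusted p = 4.2e-09), Slc1a2, a glutamate uptake transporter known mainly from glia, 1571 ± 85.0 against 490 ± 74.0 (1.66, adjusted p = 5.0e-06), and Glud1, glutamate dehydrogenase, rose by 0.83 (adjusted p = 3.0e-05). Slc38a2, a glutamine transporter, fell by 0.46 (adjusted p = 9.1e-05). Of 11 genes of other transmitters, 1 was higher, the lysosomal transporter Slc17a5 (0.90, adjusted p = 6.7e-05), and 2 lower, Slc18a2 and the glycine transporter Slc6a9 (-0.65, adjusted p = 0.016, lost against 4 h vehicle and without 48 h replicate 3 or vehicle replicate 1). Slc1a2 is also among the astrocyte markers. These counts at 48 h against vehicle stand beside 20.6% higher and 17.7% lower over all tested probe sets, and all means here are ± SD with n = 3 each.

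Across the 23 arrays, which share groups and processing, the members' log2 signals were related to each other as a description. Pearson's r was 0.92 between Snap25 and Syt1, 0.90 between Slc17a6 and Syt1, and 0.88 between Slc17a6 and Syn1. Slc17a7, at low signal, had 0.67 with Slc17a6. Syt4 had at most 0.35 with any other member, and Sv2b had -0.45 with Syn2. The genes most like Slc17a6 over all named probe sets were Stmn2, a growth cone protein of young neurons (r = 0.97), Adcyap1, the neuropeptide PACAP (0.97), and Camk2d, a calcium-dependent kinase (0.97). Those most like Snap25 were Gpm6a, Cntn2 and Basp1 (0.97, 0.97 and 0.96), and those most like Syn1 were Vat1, Kif5a and Aplp1 (0.97, 0.95 and 0.95). Cacna2d1, a calcium channel subunit, was the most alike for Syt1 and, through another probe set, for Stx1a (0.96 each), Tnik for Syn2 (0.94) and Clasp2 for Vamp2 (0.93). The nearest gene reached 0.82 for Slc17a7 (Rabepk) and 0.76 each for Syt4 (Pacc1) and Sv2b (Pdp1).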

How the data were processed

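Per the submitters' processing notes, the authors processed the arrays with MAS5 (version not given in the sources used here), from biotinylated cRNA of flash-frozen tumour tissue. The signal is deposited as intensity on a linear scale, and the authors had set every array to a 2% trimmed mean of 150, as the values show. The median signal ranged from 33.9 to 46.7. The design text names a 430A 2.0 array, but the table's 45101 probe sets match the larger 430 2.0 layout. No detection calls entered the filter.

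Names came from the platform annotation, which gives 34958 probe sets 1 symbol, 932 several and 9211 none. The scale was log2(signal + 16). Tests covered the 35069 probe sets (14980 genes) lying above the 40th percentile of the array in 2 or more arrays. Means of the 8 groups were fitted in 1 model with limma 3.58.1 in R 4.3.3 (lmFit, eBayes with trend, two-sided), with p-values adjusted by Benjamini-Hochberg within each of 10 comparisons. The 64 control probe sets were left out. The fit was tested on simulated data. The 8 h arrays were set against 4 h vehicle, and the 24 h and 48 h arrays against vehicle with no stated time, as no vehicle array carries those times. Comparisons share these vehicle arrays.

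Named genes are the 10 members, at most the 4 called genes with the smallest p in each list per comparison (those at 48 h are given), and the 3 genes most correlated with each member. Gli1, Zic1, Rbfox3, the defining markers at low signal and the transporters and enzymes of other transmitters were named outside this rule, after their values were seen. The members and lists were chosen with earlier results of these data known. The alternatives changed the offset (to 1 or 64), the filter (none, or the 60th percentile), the scaling (quantile), the trend (none) and the fit (only compared groups), and used the title run or the replicate number as a block, other vehicle arrays as control, the mean of a gene's probe sets, and leaving out each array.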

Additional observations from a re-analysis of the deposited data

Results flagged for a closer look

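The effect on Slc17a6 differed between times: its log2 difference from vehicle was larger at 48 h than at 24 h by 2.61 (SE 0.28, limma adjusted p = 6.8e-07), and all 3 of the 48 h arrays lay above all 3 of the 24 h arrays. The second Slc17a6 probe set gave 2.45 (adjusted p = 2.8e-06).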

How the results depend on the processing

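None of the members' 26 called differences changed direction under the alternatives run. Of 445 alternative values of the 26 called member differences, 422 kept their call and 23 lost it, all 23 of them for Slc17a7, Snap25 at 8 h or Vamp2 at 24 h. Of 1205 alternative values of the 74 uncalled ones, 12 gained a call. For 8 h against 4 h vehicle, where 2 probe sets passed, 0 passed with an offset of 1, without the trend and with the replicate block, 1 with no filter and with the title run as a block, 3 with an offset of 64, 6 (5 higher, 1 lower) when other groups left the fit and 7 when both vehicle groups served as control. For 48 h against 24 h, 4 in place of 2 passed with only the compared groups. For resistant 40 mg/kg against vehicle, 3 in place of 0 passed with both vehicle groups as control and 1 with the 4 h vehicle arrays. The cause was not tested. With each array left out in turn, the count was 14 to 16 at 24 h, 15 to 17 at 48 h, 2 to 2 for 48 h against 24 h, 0 to 1 at 8 h, 0 to 0 at 4 h and between the vehicle groups, 15 to 17 for resistant 40 mg/kg against 48 h, 0 to 3 for it against vehicle, 0 to 1 for 160 mg/kg against vehicle and 0 to 2 between the doses. Same-numbered replicates did not deviate together (24 pairs, r between -0.10 and 0.08), so the numbers were not taken to pair samples. The replicate block gave 17 at 24 h and 15 at 48 h and for resistant 40 mg/kg against 48 h, where Slc17a7 lost its call (-0.99, adjusted p = 0.063). An offset of 1 or 64 in place of 16 gave Slc17a6 at 48 h a log2 difference of 7.64 or 4.44. With quantile normalization the median over all tested probe sets was -0.06 at 48 h, against 0.04 on the deposited scale, and 0.03 at 24 h, against 0.10. Signals near background (Slc17a6, Slc17a7 and Syt4 in vehicle) limit what their differences can show.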
